A study of Mus musculus with 80 samples.

Results

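The 68 histone cluster genes are the genes of the RNA-seq table whose symbols begin with Hist1, Hist2, Hist3 or Hist4, chosen by name from 25965 genes. They comprise 6 genes for the linker histone H1, 19 for H2A, 18 for H2B, 12 for H3 and 13 for H4. Expression was measured by RNA-seq in wild-type mouse embryonic stem cells (ESCs) of the line E14, grown with LIF in medium with fetal calf serum, or moved from it to 2i for 6, 24 or 72 h (3 libraries per group). 2i is serum-free N2B27 medium with LIF, the MEK inhibitor PD0325901 and the GSK3 inhibitor CHIR99021. Dimethylation of lysine 9 of histone H3 (H3K9me2) was mapped by ChIP-seq with antibody ab1220 in serum, after 24 h in 2i and in long-term 2i (LT2i), with 2 bound libraries and 1 input per condition. All of these cells are 1 wild-type line, so the values describe E14 and no other ESC line. The study calls its expression replicates biological, the labels only number them, and for the ChIP libraries no source used here says that they came from separate cultures. P-values measure the spread between these libraries, which for H3K9me2 may be technical.

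Histone proteins package DNA. Pairs of H2A, H2B, H3 and H4 form the core of the nucleosome, and H1 binds the DNA that enters and leaves it. Cluster genes of this kind are transcribed mainly in S phase, when new DNA needs new nucleosomes, and ESCs spend much of their cycle in S phase. Their mRNAs usually end in a stem-loop bound by SLBP in place of a poly(A) tail. Replacement variants such as H3.3 and H2A.Z instead come from genes outside the clusters with polyadenylated mRNAs. The RNA-seq kit selects RNA with poly(A) tails, and reads in the cluster genes count only the transcripts that this selection kept.

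In GRCm38, 54 members lay in the Hist1 cluster on chromosome 13, in 1 block of 23 genes at chr13:21715763-22043676 and 1 of 31 genes at chr13:23531044-23934851. Hist1h2al stood alone at chr13:51202688-51203065, and RefSeq lists it as a transcribed pseudogene. The Hist2 cluster held 10 members at chr3:96219865-96279001, without H1. Hist3h2ba and Hist3h2a lay at chr11:58948911-58956674, and Hist4h4 at chr6:136801553-136804431. The H1 genes all lay in the Hist1 cluster, 5 of the 6 in the block of 31 genes.

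Start regions differed in sequence between the classes. In the RefSeq tables (GRCm38.p6), 68 of the 68 members were matched and 62 had a start region. CCAAT, a box bound by NF-Y, stood on either strand within 250 bases before the start in 51 of the 62 (82.3%), against 33.8% of 32851 start regions of all genes. It was found for 6 of 6 H1, 18 of 18 H2A, 16 of 16 H2B, 8 of 10 H3 and 3 of 12 H4 genes. The TATA box TATAAA was found in 29 (46.8% against 12.4%). The octamer ATTTGCAT, bound by OCT factors, was found in 13 (21.0% against 1.60%), which were 7 H2A and 6 H2B genes. AAACACA, known from H1 promoters, was found in 9 (14.5% against 6.25%), of which 5 were H1 genes. A match of letters is a description and no measured binding site. Some H2A and H2B genes start 168 to 306 bp apart in opposite directions. Their windows of 250 bases overlap, and 1 match can be counted for both genes. The octamer between Hist1h2ae and Hist1h2bg was counted for both, as was that between Hist1h2ah and Hist1h2bk. These counts are therefore of genes and not of separate sites. The sequences below are the 150 bases before the RefSeq start of the most abundant member of each class, and for H2B of the second, as the first had no entry. The last is the 179 bases between the divergent starts of Hist1h2ae and Hist1h2bg. Only pairs with both start regions in RefSeq and a gap of at most 250 bases were searched for an octamer in the gap. Of these, 2 had it, and the pair shown had the more H2A reads. Hist1h2ac, Hist2h2ac, Hist1h2aa and Hist1h2ba, whose pairs were not searched, also had an octamer before the start. Each sequence is written 5′ to 3′ on the strand given, and capitals mark matches to the 4 motifs on either strand.
Hist1h1c (H1), chr13:23738657-23738806, plus strand: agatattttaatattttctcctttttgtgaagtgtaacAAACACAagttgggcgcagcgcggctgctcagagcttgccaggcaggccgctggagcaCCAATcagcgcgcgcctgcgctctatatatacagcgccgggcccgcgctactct
Hist1h2af (H2A), chr13:23533725-23533874, plus strand: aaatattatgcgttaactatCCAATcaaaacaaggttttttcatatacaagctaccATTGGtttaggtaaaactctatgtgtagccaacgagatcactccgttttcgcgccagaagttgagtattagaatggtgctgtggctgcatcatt
Hist3h2ba (H2B), chr11:58948761-58948910, plus strand: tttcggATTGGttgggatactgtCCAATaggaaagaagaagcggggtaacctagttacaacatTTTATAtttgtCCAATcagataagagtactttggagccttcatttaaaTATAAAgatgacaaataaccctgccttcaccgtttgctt
Hist1h3h (H3), chr13:21717478-21717627, plus strand: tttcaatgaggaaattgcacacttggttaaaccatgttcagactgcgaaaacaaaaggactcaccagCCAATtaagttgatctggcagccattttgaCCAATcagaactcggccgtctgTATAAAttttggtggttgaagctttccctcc
Hist1h4d (H4), chr13:23581418-23581567, plus strand: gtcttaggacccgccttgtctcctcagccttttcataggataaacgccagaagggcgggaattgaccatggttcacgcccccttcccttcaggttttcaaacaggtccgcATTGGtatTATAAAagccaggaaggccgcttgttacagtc
Hist1h2ae and Hist1h2bg, chr13:23571221-23571399, minus strand: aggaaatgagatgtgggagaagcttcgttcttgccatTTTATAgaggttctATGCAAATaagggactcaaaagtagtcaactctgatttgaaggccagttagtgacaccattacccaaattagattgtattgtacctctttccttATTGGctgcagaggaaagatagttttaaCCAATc

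H2A genes gave most of the histone reads. Levels are the deposited log2 values, which are corrected for gene length and set to 1 percentile in every library. The median over members of the mean level in the 12 libraries was 1.44 for H2A, −1.04 for H3, −1.73 for H4, −1.75 for H2B and −2.70 for H1. The median of the 19814 genes with a read in any library was 0.92, so the typical H2A gene lay above the typical detected gene and the typical member of each other class below it. The median percentile among detected genes was 55.0 for H2A, against 35.7 for H3, 31.3 for H4, 31.2 for H2B and 25.2 for H1. A mean level above 0, the minimum for the main test, was reached by 17 of the 68 members, which were 15 H2A genes, Hist1h1c and Hist1h2bc. Of the 12 H3 and 13 H4 genes, 0 reached it.

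**Figure D1:**
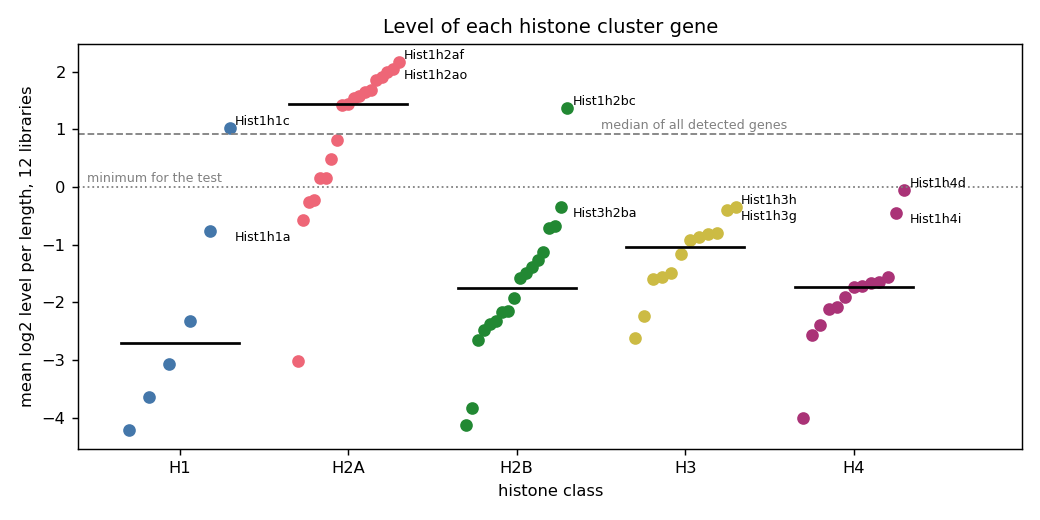
Mean log2 level per length over the 12 libraries of each of the 68 members, by class, with black bars at class medians. The dashed line marks the median of 19814 detected genes (0.92) and the dotted line the minimum for the main test. H2A genes fill the upper range, with a class median of 1.44, and the H1, H2B, H3 and H4 medians lie at −1.04 or below.

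Read numbers behind these levels were low. Single reads could be recovered from the deposited values, and they summed to 10317841 to 15271213 reads in genes per library, of which 562 to 1510 fell in the 68 members. Over the 12 libraries together, the median member had 63 reads in H1, 398 in H2A, 69 in H2B, 94 in H3 and 43 in H4. Zero reads in at least 1 library were counted for 25 members, and such a zero allows up to 0.196 to 0.291 RPM, depending on the library (3 reads, counting error only). RPM are reads per 1000000 reads in genes. Reads from PCR copies are not independent molecules. Read counts of single libraries are given below as counted, without adjustment for depth, and groups were compared on the log2 levels.

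Among H1 genes, Hist1h1c led. It encodes the somatic subtype H1.2 and is known to make polyadenylated transcripts as well. Its reads were 39, 43 and 52 in serum, 55, 59 and 52 at 6 h, 100, 100 and 70 at 24 h, and 51, 83 and 50 at 72 h. All 24 h libraries lay above all serum libraries, and 6 h replicates 1 and 2 and 72 h replicate 2 reached into the 24 h range. Hist1h1a, the H1.1 gene, had 4, 0 and 5 reads in serum, 10 in each library at 6 h, 29, 27 and 17 at 24 h, and 9, 11 and 5 at 72 h. Hist1h1e (H1.4) came next, with 0 to 6 reads in serum and 5 to 8 at 24 h. Hist1h1t, the testis-specific linker histone, had 0 or 1 read in every library.

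Most H2A genes lay within a narrow range of levels. The 3 highest were Hist1h2af (2.16), Hist1h2ao (2.05) and Hist1h2ap (1.99), all coding for replication-coupled H2A, and 11 of the 19 lay between 1.42 and 2.16 on this log2 scale. The other 8 reached down to −3.01, and 4 of them lay below 0. Reads of Hist1h2af were 38, 21 and 34 in serum, 33, 26 and 28 at 6 h, 38, 49 and 43 at 24 h, and 37, 37 and 32 at 72 h. In level, 24 h replicate 3 lay within the serum range. Hist1h2ao had 32, 23 and 41 reads in serum, 29, 29 and 31 at 6 h, 70, 57 and 60 at 24 h, and 46, 29 and 34 at 72 h. Here every 24 h library exceeded every other library. Hist1h2ap had 24, 26 and 30 reads in serum, 37, 37 and 38 at 6 h, 52, 64 and 43 at 24 h, and 50, 51 and 36 at 72 h, which was above serum in all 2i libraries. Hist1h2aa, a testis H2A gene, had 2 reads in all 12 libraries together and was the lowest of its class.

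Hist1h2bc stood apart from the other H2B genes, at a mean level of 1.37 against −0.35 for the next. It codes for replication-coupled H2B and is known for polyadenylated transcripts. Its reads were 30, 25 and 25 in serum, 42, 37 and 37 at 6 h, 63, 56 and 56 at 24 h, and 26, 34 and 25 at 72 h. Its 24 h libraries lay above the 6 h libraries, and these above serum and 72 h. Hist3h2ba had 4, 9 and 7 reads in serum, 8, 7 and 15 at 6 h, 25, 26 and 20 at 24 h, and 5, 5 and 6 at 72 h. Hist1h2bk had 3, 9 and 6 reads in serum, 7, 0 and 8 at 6 h, 17, 19 and 9 at 24 h, and 3, 5 and 3 at 72 h. In Hist3h2ba the 24 h libraries stood clear of all others, and in Hist1h2bk 24 h replicate 3 lay within the serum range. Hist2h2be, another H2B gene with known polyadenylated transcripts, had 5 to 8 reads in serum, 6 to 10 at 6 h, 11 to 21 at 24 h and 7 or 8 at 72 h. Hist1h2ba, the testis H2B gene, had 1 read in the 3 serum libraries together, 0, 2 and 7 at 6 h, 4, 9 and 5 at 24 h and 0, 2 and 0 at 72 h.

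The H3 and H4 genes had few reads each and no member that led by far. Hist1h3h was the highest H3 gene (mean level −0.35), with 5, 3 and 9 reads in serum, 8, 8 and 7 at 6 h, 10, 13 and 12 at 24 h, and 5, 9 and 5 at 72 h. Hist1h3g had 7 or 8 reads in serum and 12 to 14 at 24 h, and Hist1h3c had 2 to 9 in serum and 9 to 22 at 24 h. Hist1h4d was the highest H4 gene (−0.05), with 3, 2 and 10 reads in serum, 5, 9 and 9 at 6 h, 18, 18 and 12 at 24 h, and 10, 7 and 3 at 72 h. In Hist1h3h and Hist1h4d the 24 h libraries lay above all serum libraries. Hist1h4i had 5, 5 and 11 reads in serum and 25, 27 and 10 at 24 h, and Hist1h4a had 1 to 4 in serum and 6 to 9 at 24 h. Hist4h4, the H4 gene outside the clusters, had 16, 6 and 15 reads in serum, 6, 18 and 16 at 6 h, 13, 9 and 26 at 24 h, and 4, 6 and 9 at 72 h. In level its serum, 6 h and 24 h libraries overlapped, and the 72 h libraries lay below all 24 h libraries and overlapped serum and 6 h.

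Summed over each class, histone reads peaked at 24 h in 2i and were back near serum at 72 h. All 68 members together took 53.2, 54.5 and 55.4 RPM in serum, 64.3, 66.1 and 66.9 at 6 h, 126, 129 and 95.0 at 24 h, and 57.1, 73.6 and 48.4 at 72 h. The 24 h libraries lay above all others, and 6 h lay above serum. H4 had the largest ratio of 24 h to serum, except without 24 h replicate 1, where H3 had 2.51 and H4 2.49, and H2A had the smallest in every such set of libraries. H4 went from 3.57 ± 0.56 (SD, n = 3) to 10.1 ± 2.36 RPM, a ratio of 2.81. H3 went from 5.25 ± 0.09 to 13.4 ± 1.71 (2.55), and H1 from 4.51 ± 0.42 to 11.4 ± 2.82 (2.52). H2B went from 8.23 ± 1.32 to 18.2 ± 3.70 (2.22), and H2A from 32.8 ± 0.57 to 63.7 ± 9.15 (1.94). In each class all 3 libraries at 24 h lay above all 3 in serum, and no test was run on these sums.

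At 72 h, class means lay on either side of serum, and no test compared the classes. H2A stood at 40.4 ± 7.61 RPM (SD, n = 3) and H1 at 6.09 ± 2.39, at or above their serum means. Of the 225 H1 reads at 72 h, 184 came from Hist1h1c. Hist1h1b, Hist1h1d, Hist1h1e and Hist1h1t had negative differences from serum (−0.81, −1.23, −0.43 and −0.05 on the log2 scale), and with the median over the 6 H1 genes in place of the sum the difference was −0.58. H2B (6.21 ± 1.15), H3 (4.56 ± 1.72) and H4 (2.44 ± 0.73) had means below serum. The 72 h range overlapped serum in H1, H2A, H2B, H3 and H4, and the size of each difference rested on single libraries. On the log2 scale of summed levels, the difference from serum was 0.32 for H1 and 0.040 without 72 h replicate 2. It was 0.15 for H2A, 0.024 without 72 h replicate 2 and 0.32 without replicate 3. H2B had −0.38, and −0.25 without 72 h replicate 1. H3 had −0.30, −0.64 without 72 h replicate 2 and −0.059 without replicate 3, and H4 had −0.46, −0.72 and −0.17 in the same order. H2A made up 59.1% to 62.6% of histone reads in serum, 52.2% to 56.5% at 24 h and 64.5% to 72.5% at 72 h, ranges that did not overlap. H4 made up 5.52% to 7.45%, 7.88% to 9.80% and 3.79% to 4.44%, also without overlap. In every class 24 h replicate 3 was the lowest of its group and 72 h replicate 2 the highest of its group. In bulk RNA, a change in the share of cells that express a gene and a change in RNA per cell cannot be told apart.

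**Figure D2:**
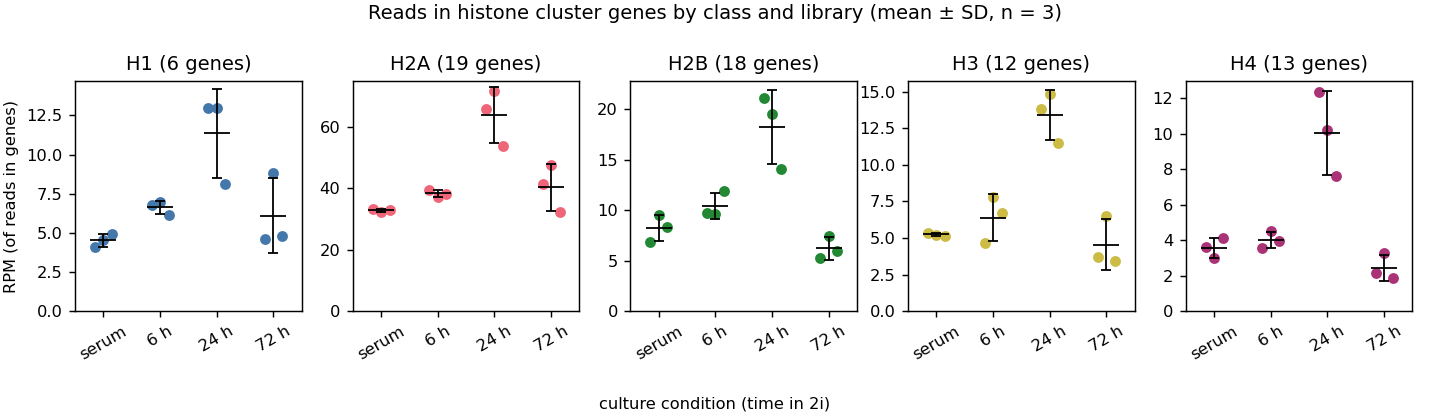
RPM (reads per 1000000 reads in genes), summed over the members of each class, for each of the 12 libraries by culture condition; points are libraries and bars mean ± SD (n = 3), with a separate axis from 0 per class. All classes are highest at 24 h, where H2A reaches 63.7 and H4 10.1 on average.

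At 24 h, most tested histone cluster genes rose, and fewer did once a trend on gene span was removed. Of the 17 members tested, 14 were called higher and 0 lower, where 33.6% of all 11376 genes tested were called higher and 62.7% in either direction (limma, Benjamini-Hochberg adjusted p under 0.05). The 14 were 12 of 15 H2A genes, Hist1h1c and Hist1h2bc. The median change of the 17 was 0.89 on the log2 scale, against 0.10 over all genes tested. With the trend on span removed, 7 of the 17 were called higher, where 33.4% of all genes were, with a median change of 0.44 against 0.07 over all genes. The largest called change was that of Hist3h2a, an H2A gene of the Hist3 cluster. Its reads were 22, 20 and 31 in serum, 32, 40 and 42 at 6 h, 88, 96 and 85 at 24 h, and 37, 52 and 29 at 72 h, with every 24 h library above every other. The log2 change at 24 h was 1.91 ± 0.23 (SE), with an adjusted p of 4.32e-05 (limma). This gene met the minimum level only through its 24 h libraries (mean level 0.15, and −0.22 without them). Its calls in the fits with that minimum therefore support nothing, and it was among the 7 called with the trend on span removed. In the fits that do not use that minimum, it was called at 1.91 without the minimum (limma adjusted p = 7.77e-05) and at 1.87 in limma voom (7.75e-05). With the minimum set on the libraries other than 24 h, chosen after the values were seen, 13 of 16 members were called higher (33% of genes). The trend on span was not removed in that fit.

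The rises that follow were fitted with the trend on span left in. Hist1h2bc rose by 1.14 ± 0.22 (SE, limma adjusted p = 0.00103) and Hist1h1c by 1.01 ± 0.28 (0.00914). Hist1h2ao rose by 1.00 ± 0.15 (SE, limma adjusted p = 0.000229), Hist1h2ap by 0.98 ± 0.22 (0.00237) and Hist1h2af by 0.53 ± 0.19 (0.0300), the smallest change among the 14. With the trend on span removed, Hist1h2ao (0.47, limma adjusted p = 0.0513) and Hist1h2af (−0.017, 0.945) were not called, and Hist1h2ap was called at 0.46, Hist1h1c at 0.61 and Hist2h2aa2 at 0.60. Hist1h2an (0.47), Hist2h2ac (0.42) and Hist1h2ad (0.41) had positive changes with adjusted p of 0.165, 0.226 and 0.186. Hist2h2aa2 rose by 1.12 ± 0.24 (adjusted p = 0.00232). Of the 4 genes known for polyadenylated transcripts (Hist1h1c, Hist1h2ac, Hist1h2bc and Hist2h2be), 2 were tested. Both were called higher, as were 33.6% of all genes tested. Of the 3 testis genes (Hist1h1t, Hist1h2aa and Hist1h2ba), 0 were tested.

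Of the 51 members too low for that test, 22 were called higher at 24 h and 0 lower in a fit without the minimum level. In that fit, 36 of all 68 members were called higher and 0 lower, where 25.6% of 19814 genes were called higher and 21.8% lower. By class these were 2 of 6 H1, 14 of 19 H2A, 7 of 18 H2B, 6 of 12 H3 and 7 of 13 H4 genes, and 67 of the 68 had a positive difference of means, as did 55.8% of the 19814 genes. Differences of genes with few reads depend on the value given to a gene without reads. All 3 libraries at 24 h lay above all 3 in serum for 42 of 68 members, against 27.5% of detected genes, and below for 0, against 24.4%.

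Short genes were higher at 24 h over the whole table. The median log2 change was 0.53 in the 2276 tested genes with the shortest spans (93 to 6207 bp) and −0.41 in those with the longest, and most members have short spans. Above, this trend was removed only for genes that met the minimum level. It was left in for the counts over all 68 members, the H3 and H4 genes and the class sums. Without 24 h replicate 2 and with the trend left in, 9 of 17 were called. The share of all genes was not counted in that fit, so the drop cannot be set against it.

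**Figure D3:**
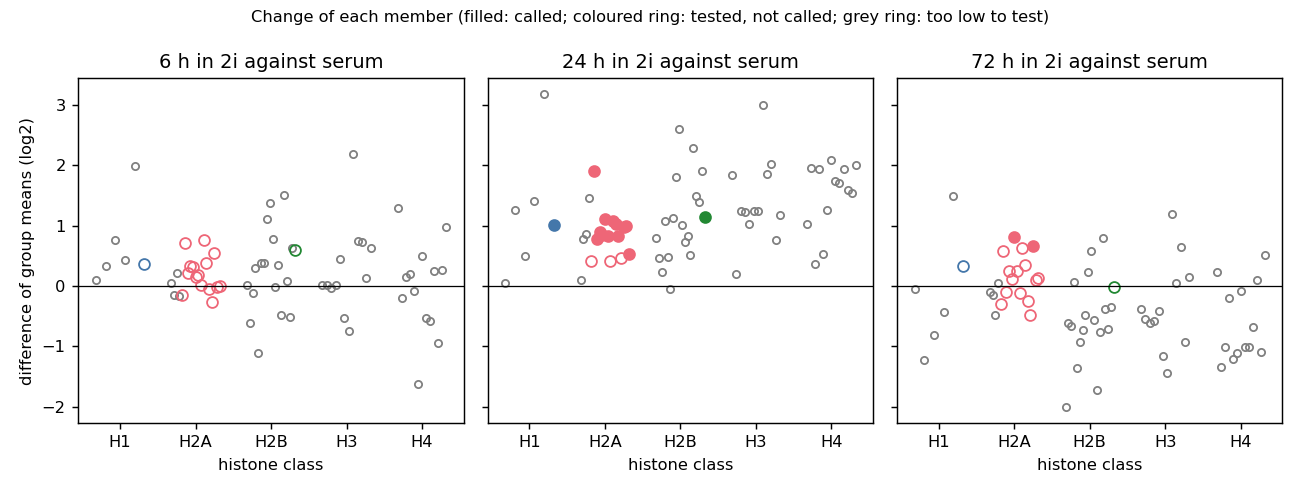
Difference of group means on the log2 scale between each time in 2i and serum for the 68 members, by class and ordered by level within a class. Filled points were called by limma, coloured rings were tested and not called, and grey rings had a mean level of 0 or below. At 24 h nearly all points lie above 0 (67 of 68), while at 72 h they lie on both sides.

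At 72 h most of this rise was gone. Against serum, 2 of 17 members were called higher and 0 lower (24.5% of genes were called higher and 26.0% lower), with a median change of 0.13 against −0.01 over all genes. They were Hist2h2aa2 and Hist1h2ap, both H2A genes. In limma voom, Hist2h2aa2 was called higher (23.3% of genes) and Hist1h2bf (−2.46) and Hist1h2be (−2.30) lower (23.8%), and Hist1h2ap was not called (0.67, adjusted p = 0.0577). Hist2h2aa2 had 22, 14 and 23 reads in serum, 24, 20 and 18 at 6 h, 38, 48 and 39 at 24 h and 44, 44 and 24 at 72 h. Its libraries at 24 h lay above serum and 6 h, and 72 h replicate 3 lay within the 6 h range. At 72 h the difference from serum was 0.81 ± 0.24 for Hist2h2aa2 (SE; adjusted p = 0.0168 in limma) and 0.67 ± 0.22 for Hist1h2ap (0.0234). The count fell to 0 without 72 h replicate 1 or 72 h replicate 2, fell to 1 without serum replicate 2 or 3, and rose to 4 without 72 h replicate 3 or 24 h replicate 3. How many of all genes were called in those fits was not counted. With the trend on span removed, Hist2h2aa2 and Hist1h2ap were called higher (26.5% of genes) and 2 members lower (27.6%), which were Hist1h2an (−0.74, limma adjusted p = 0.0126) and Hist1h2ag (−0.49, 0.0439).

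The comparison of 72 h with 24 h called 8 members lower and 0 higher (14.6% of genes were called lower and 15.2% higher), with a median change of −0.69 against −0.07 over all genes. With the trend on span removed 5 were called lower (15.7% of genes), without Hist2h2aa1, Hist1h2ak and Hist1h2ai, and with only the 2 groups compared 3 were (4.76%). The 5 include Hist3h2a, whose calls in fits with the minimum level support nothing. The 8 were Hist3h2a, Hist1h2bc, Hist1h2ag, Hist1h2an, Hist1h2ao, Hist1h2ak, Hist1h2ai and Hist2h2aa1. Hist1h2bc fell by 1.16 ± 0.22 (SE, limma adjusted p = 0.00273). Hist3h2a, which met the minimum only through its 24 h libraries, had −1.33 without the minimum (limma adjusted p = 0.00228) and −1.32 in limma voom (0.00112). With the minimum set on the other libraries, 7 of 16 members were called lower (14.3% of genes). All 3 libraries at 72 h lay below all 3 at 24 h for 46 of 68 members, against 16.5% of detected genes. Counts ran from 5, without 24 h replicate 1, 24 h replicate 2 or 72 h replicate 3, to 13, without 24 h replicate 3. Shares of all genes were not counted in these fits. Comparisons with serum share its 3 libraries.

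After 6 h in 2i, 0 of 17 members were called by limma, where 14.2% of genes were called (8.24% higher and 6.01% lower). By limma voom on the recovered reads, 0 of 66 were called, where 13.1% of 17692 genes were. In limma, 5 of 17 had an unadjusted p under 0.05. The share of all genes at that threshold was not counted, so the 5 cannot be set against it. All 3 same-numbered pairs of serum and 6 h libraries correlated over 0.1 in their deviations from group means, a hint of pairing. Serum replicate 2 correlated more with 6 h replicate 1 (0.32) than with 6 h replicate 2 (0.26). With the replicate number as a block, 4 members were called higher, where 11.3% of genes were. They were Hist3h2a, Hist1h2ap, Hist1h2bc and Hist1h2ab. Counts were also 4 with the trend on span removed (9.77% of genes higher) and 4 in a fit of the serum and 6 h libraries alone (15.5%). The log2 changes were 0.37 for Hist1h1c, 0.59 for Hist1h2bc and 0.71 for Hist3h2a. Without the minimum level, 1 of 68 was called (11.7% of 19814 genes in either direction), which was Hist1h1a at 1.99. All 3 libraries at 6 h lay above serum for 8 of 68 members (20.1% of detected genes) and below for 2 (15.5%).

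H2A and H2B genes that share a start region differed in level. In 12 pairs the genes ran in opposite directions from starts 168 to 306 bp apart. The H2A gene had the higher level in 10 pairs, in 12 of 12 libraries each, and the median difference over the 12 pairs was 2.60 on the log2 scale. Over all libraries, H2A genes of the pairs had 4136 reads and H2B genes 1229. The widest gap in level per length was between Hist1h2ao (2.05) and Hist1h2bq (−2.66). These span 480 and 3788 bp and had 481 and 90 reads, while Hist1h2ai and Hist1h2bl had 430 and 34. The H2B gene had the higher mean level in 2 pairs. In Hist1h2ac with Hist1h2bc, at −0.58 and 1.37, it was higher in 12 of 12 libraries. In the testis pair Hist1h2aa with Hist1h2ba, at −3.01 and −1.92, it was higher in the 7 libraries with a read, and in the other 5 both genes had 0 reads. Levels depend on the gene length used, and in reads Hist1h2ac and Hist1h2bc were close (398 and 456 over all libraries), with Hist1h2ac the higher in serum replicates 1 and 3, 24 h replicate 2 and 72 h replicate 1. Likewise Hist2h2ac and Hist2h2be differed by 2.64 in level and had 136 and 114 reads. For Hist1h2ac, known for polyadenylated transcripts, reads were 34, 20 and 35 in serum, 21, 27 and 28 at 6 h, 46, 61 and 42 at 24 h, and 31, 30 and 23 at 72 h, with all 24 h libraries above the others.

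Both genes of a pair were mostly higher at 24 h. The median change at 24 h was 0.81 for the H2A and 1.05 for the H2B genes of the pairs, and the H2B change was the larger in 9 of 12 pairs. At 72 h the medians were −0.10 and −0.47 relative to serum. These are descriptions of 12 pairs, since most H2B partners had too few reads for the test.

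**Figure D4:**
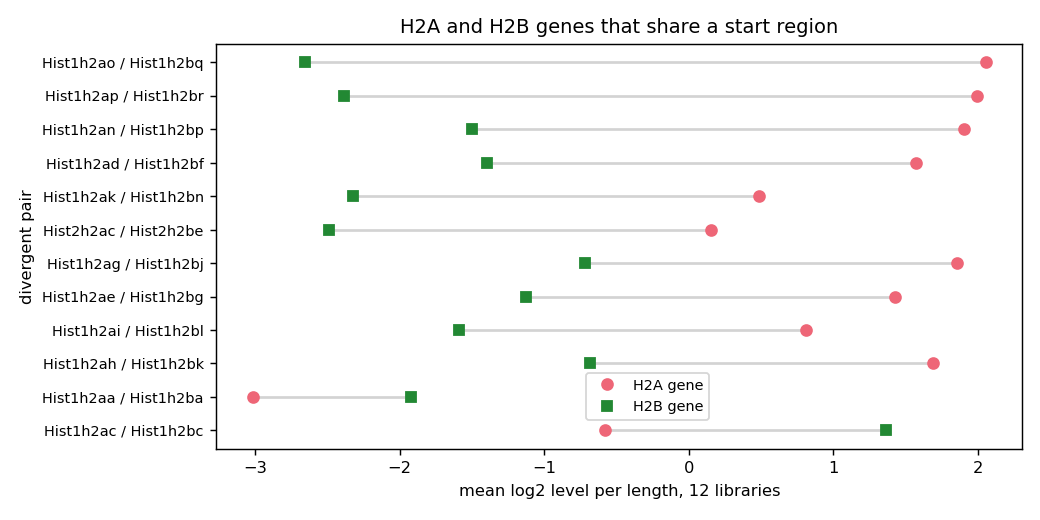
Mean log2 level per length over the 12 libraries for the H2A gene (circle) and the H2B gene (square) of the 12 divergent pairs, ordered by their difference. The H2A gene lies higher in 10 pairs and the H2B gene in the pairs Hist1h2ac / Hist1h2bc and Hist1h2aa / Hist1h2ba.

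Reads of some members cannot be assigned with certainty. Many core histone genes of a class are known to be near-identical in their coding part, which was not computed here, and the sources used here do not say how reads that match several copies were counted, so a class sum is less exposed than a single gene. The library kit does not mark strand, and 8 members share part of their span with another gene of the table. Hist3h2a lies wholly within Trim17, a gene on the same strand, over 1990 bp. Trim17 had 23, 23 and 30 reads in serum, 29, 39 and 32 at 6 h, 68, 71 and 68 at 24 h, and 39, 46 and 26 at 72 h, highest at 24 h as in Hist3h2a. Hist2h3c1 lies wholly within Gm20634 on the same strand (1825 bp), and Hist2h2aa1 overlaps Gm20634 and Gm20633. Hist2h2aa2, called higher at 72 h, lies wholly within Gm20632 on the other strand (539 bp). Gm20632 had 6, 7 and 10 reads in serum and 12, 18 and 19 at 6 h. At 24 h it had 23, 16 and 29, and at 72 h 36, 25 and 24. Whether reads of these members came from the other gene was not tested.

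Genes that serve histone mRNA mostly fell at 24 h. All gene lists from here on were counted only in the main fit, with the trend on span left in. Among 21 tested genes for histone transcription and 3′ end processing, 3 rose and 13 fell, where 33.6% of genes rose and 29.1% fell, with a median change of −0.47. Lsm11 and Lsm10, parts of the U7 particle that cuts histone mRNA, rose by 1.05 and 0.69, while Srrt fell by 1.39 and Zfp473 fell by 1.23. ZFP473 (ZNF473) binds to the SLBP and mRNA complex, and SRRT is a partner of the cap-binding complex. Slbp, the stem-loop binding protein, had a change of 0.06 and was not called, and Npat, the transcriptional coactivator of the histone clusters, fell by 0.92. At 72 h against serum, 3 rose and 11 fell (24.5% and 26.0% of all genes), and at 6 h 0 rose and 1 fell (8.24% and 6.01%).

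Replacement histone genes, which make polyadenylated mRNA, rose at 24 h as well, with the trend on span left in. Of 11 tested, 10 were called higher and 0 lower, where 33.6% and 29.1% of all genes were, with a median change of 0.93. The macroH2A genes H2afy and H2afy2 rose by 1.74 and 1.42, the H1.0 gene H1f0 by 1.47, H2afv by 1.24, H2afj by 1.19 and H1fx by 0.93. Cenpa, the centromeric H3, rose by 0.83, the H3.3 genes H3f3a and H3f3b by 0.82 and 0.56, and H2afx by 0.79. H2afz had a change of 0.21 and was not called, and the oocyte gene H1foo was too low to test. At 72 h 5 were called higher than serum (24.5% of all genes), of which H2afy stood at 2.39 and H2afy2 at 1.61.

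Of 19 tested chaperones and assembly factors, 2 were called higher and 11 lower at 24 h (median −0.43), where 33.6% of all genes were called higher and 29.1% lower. Chaf1b, a subunit of the CAF-1 assembly factor, rose by 1.04 and Hat1, which acetylates new H4, by 0.82, whereas Atrx fell by 2.58 and Cabin1 fell by 1.16, both linked to H3.3 deposition. Of 20 S phase genes, 4 rose and 6 fell (median −0.05), against 33.6% and 29.1% of all genes, and E2f1 rose by 0.78 and Gins2 by 0.70, and Ccne1 fell by 1.43 and Cdc6 fell by 0.87. Among 13 genes of the polyadenylation machinery, 1 rose and 5 fell (median −0.33), against those same shares of all genes. Cpsf4 rose by 0.37, Wdr33 fell by 0.97 and Papola fell by 0.93. The table held 0 of 20 listed RNAs without poly(A) tails from other families.

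The libraries expressed ESC markers throughout. Of 8 tested, 3 rose and 3 fell at 24 h, near the shares of all genes (33.6% and 29.1%), and Nanog rose by 1.55 and Esrrb by 0.58, and Utf1 fell by 4.09 and Dppa4 fell by 1.11. Pou5f1 stood at 8.29 in serum and 8.55 at 24 h. The summed levels of primitive endoderm, mesoderm and fibroblast markers were low against those of ESC markers, and those of neural markers were higher. On the linear scale, the summed level of 5 primitive endoderm markers was 3.82 to 4.03 in serum and 3.26 to 3.49 at 24 h, and that of 4 mesoderm markers 4.37 to 5.27 and 1.58 to 1.85. For 6 fibroblast markers it was 7.61 to 9.76 and 4.75 to 7.77, and for 4 neural markers 49.8 to 52.7 and 62.1 to 78.2, with 93.7 to 96.6 at 6 h and 32.6 to 36.7 at 72 h. Tubb3 had 948 to 3214 reads per library and Nes 322 to 1143. ESC markers summed to 1127 to 1178 and 902 to 1337. Lum, a fibroblast marker, had 0 reads in 12 of 12 libraries. Called at 24 h were Dab2 (−1.16), T (−0.76), Col1a1 (−0.60) and Nes (−0.87), lower, and Tubb3 (0.59) and Sox1 (0.58), higher. The part of these cell types in the histone results was not tested.

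H3K9me2 was low over most histone cluster genes in all 3 conditions. H3K9me2 is a mark of inactive chromatin, and the table gives reads in bins of 2 kb. A bin was listed for 61 of 68 members, covering 92 distinct bins, and 30 members shared a bin with another, so neighbours are not independent. Relative to input and to the genome mean of 1, both bound libraries together, the median member had a ratio of 0.046 in serum, 0.068 at 24 h and 0.045 in LT2i. For 23602 genes the median was 0.531, 0.509 and 0.285. Below that median lay 60 of 61 members in serum, 57 at 24 h and 53 in LT2i. No bound read was found for 12, 13 and 17 members, which in serum allows ratios up to 0.0559 to 0.174 (3 reads, counting error only).

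The highest ratios in serum belonged to 2 testis genes at the end of the Hist1 cluster and to the lone Hist1h2al. Hist1h2ba had 27 and 23 bound reads in serum, 25 and 20 at 24 h, and 30 and 17 in LT2i, on 31, 34 and 29 input reads, which gave ratios of 0.841, 1.07 and 0.761. It was the 1 member above the gene median in serum. Its partner Hist1h2aa, which lies in 1 of the same bins, had 0.496, 0.568 and 0.494, and Hist1h2al 0.379, 0.521 and 0.302. In serum, Hist1h2aa rested on 13 and 7 bound reads and Hist1h2al on 3 and 5, with 11 input reads. Hist1h2be came next at 0.375 on 163 and 137 bound reads, so the order of Hist1h2al and Hist1h2be is not settled. Hist1h1t had 7 and 9 bound reads in serum, 11 and 10 at 24 h, and 19 and 9 in LT2i. Hist1h1c, Hist1h2ag and Hist2h3b were among the 12 members with 0 bound reads in serum, on 27, 12 and 19 input reads. At Hist1h1c, 2 reads were counted at 24 h and 2 in LT2i.

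The 2 Hist1 blocks on chromosome 13 differed in H3K9me2, in part through a few members. Over the bins of its members, bound over input was −4.40 and −4.67 (log2, 2 libraries) in serum, −4.06 and −4.64 at 24 h, and −3.98 and −3.76 in LT2i. In the block of 31 genes it was −2.09 and −2.24, −1.83 and −1.73, and −1.88 and −2.23. The 2 blocks did not overlap in any condition. Of the 55 bins in the block of 31, 18 were those of Hist1h2be, which spans 37383 bp and held 163 of 258 and 137 of 224 bound reads in serum. Without the bins of Hist1h2be and of the testis pair, chosen after the values were seen, the block had −3.28 and −3.31 in serum, −2.86 and −2.74 at 24 h, and −2.69 and −3.45 in LT2i. Hist2 members had −3.83 and −3.55 in serum, −2.38 and −2.72 at 24 h, and −3.45 and −3.39 in LT2i, on 18 to 33 bound reads per library. Between first and last member, other bins included, the first block had −1.82 in serum, the second −0.33 and Hist2 −2.04.

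No change of H3K9me2 over a member passed the test. Only 6 members had a mean bound value of 5 or more, which were Hist1h2ba, Hist1h2aa, Hist1h2al, Hist1h2be, Hist1h2ac and Hist1h1t. At 24 h, 0 of the 6 were called by limma, with 0 at an unadjusted p under 0.05, as were 0% of 17317 genes. In LT2i, 0 of the 6 were called, where 60.4% of genes were called, 52.1% lower, with a median change of −0.49 on the log2 scale. At an unadjusted p under 0.05, 1 passed. That was Hist1h1t, at 0.76 ± 0.29 (SE, limma adjusted p = 0.0683), and it rested on single libraries. It was 1.15 and called without LT2i replicate 2 (limma adjusted p = 0.0165), and 0.37 and not called without LT2i replicate 1. In LT2i, 0 members had an unadjusted p under 0.05 with the replicate block, with only the 2 groups compared or for bound over input. At 24 h, 2 had it for bound over input and 1 with only the 2 groups compared, and 0 were called. The share of all genes with an unadjusted p under 0.05 was not counted, so these unadjusted counts cannot be set against it. Without the minimum, 6 of the 61 members with a bin were called in LT2i, where 55.9% of genes were. Hist1h3b (−1.49), Hist2h2aa2 (−1.48), Hist1h2bk (−1.17) and Hist4h4 (−0.94) were lower, and Hist1h1e (0.76) and Hist2h3c1 (0.54) higher. These rest on 0 to 8 bound reads per library. The values are scaled to library depth, so a change shared by the whole genome cannot be seen in them, and each condition had 1 input.

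**Figure D5:**
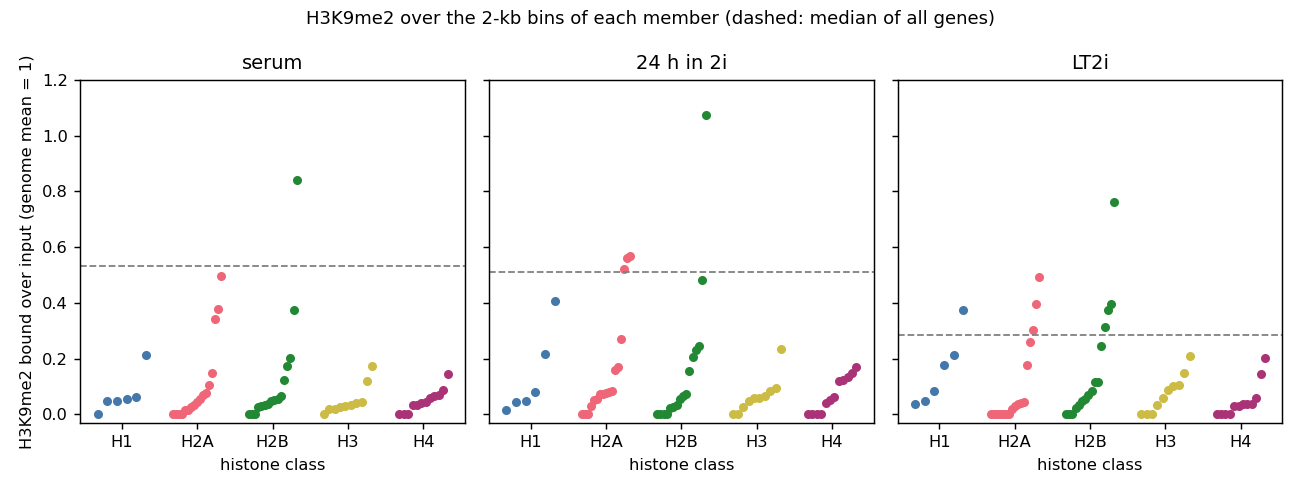
Ratio of H3K9me2 bound over input in the 2-kb bins of each of the 61 members with a bin, both bound libraries together, by class and condition, where 1 is the genome mean. Dashed lines mark the median of 23602 genes (0.531, 0.509 and 0.285); most members lie near 0, and the H2B point at the top of each panel is Hist1h2ba.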

How the data were processed

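The values analysed are those the authors deposited. For RNA-seq these are log2 values per gene, corrected for length and depth and set to a common 75th percentile of 2.51. Genes with no read carry the value of 0.9 reads, which let whole reads be recovered for 99.85% of 25965 genes (tolerance 0.02 reads) and for all 68 members. The H3K9me2 table the authors deposited gives log2 values of reads in 2-kb bins after scaling to the largest library (14396552 to 23785128 reads), for bins with at least 6 to 8 input reads. The submitters' processing notes name Trim Galore 0.3.5, TopHat2 2.0.11, Bowtie2 and GRCm38. Bisulfite files use another build and were not used here.

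Groups came from the sample labels. RNA values of 11376 genes with a mean above 0 were fitted in limma 3.58.1 (R 4.3.3) with all 12 libraries, and the threshold was an adjusted p (Benjamini-Hochberg, over all genes) under 0.05. For H3K9me2, bound bins were averaged per gene, with a prior of 1, for 17317 genes with a mean of 5 or more. The fits were tested on simulated data first. Same-numbered RNA libraries deviated from their group means with correlations over 0.1 in 15 of 18 pairs, among them all 3 pairs of serum with 6 h (0.26 to 0.66) and of serum with 24 h (0.13 to 0.54), which count as paired. Serum with 72 h (lowest 0.051) and 24 h with 72 h (lowest −0.32) do not. Correlations also passed 0.1 in 10 of 36 pairs of libraries with other numbers, so this rule does not by itself show pairing. The fit reported has no replicate block. Limma voom on recovered reads, for 17692 genes, was chosen after seeing the data, since the deposited values are not counts.

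The members, gene lists and tests were chosen with earlier results of these data known. Genes are named by a fixed rule. It takes the 3 highest members of each class, the largest called changes, members with known polyadenylated transcripts or known from testis, Hist3 and Hist4 members, the H3K9me2 extremes, and in each other list the 2 largest called changes each way at 24 h and all replacement variants. Slbp, Npat, Hist1h2ab, Hist1h2an, Hist1h2be, Hist1h2bf, Hist2h2ac, Hist1h2ad, Pou5f1, Lum and the overlapping genes were named after their values were seen, as were the 8 members lower at 72 h than at 24 h.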

Additional observations from a re-analysis of the deposited data

Results flagged for a closer look

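The change between 24 h and 72 h in 2i was tested as 72 h directly against 24 h, a difference from which serum levels cancel. The serum libraries entered the minimum level and the shared estimate of the spread. The change passed for 8 of 17 tested members, each of them lower at 72 h, where 14.6% of all genes were called lower and 15.2% higher (limma, Benjamini-Hochberg adjusted p under 0.05). Of these 8 members, 7 were H2A genes, as were 15 of the 17 tested. On the log2 scale, Hist3h2a was lower at 72 h than at 24 h by −1.33 (limma adjusted p = 0.00162). It met the minimum level only through its 24 h libraries, so its call in this fit supports nothing. With the minimum set on the other libraries, as given above, it was not tested. Without the minimum, its adjusted p was 0.00228. Hist1h2ag differed by −1.08 (adjusted p = 0.00828) and Hist1h2an by −0.95 (0.0272). Hist1h2ao differed by −0.90 (adjusted p = 0.00147), Hist1h2ak by −0.88 (0.0355), Hist1h2ai by −0.64 (0.00719) and Hist2h2aa1 by −0.59 (0.022). The H2B gene was Hist1h2bc, at −1.16 (adjusted p = 0.00273). With the trend on span removed, 5 of the 8 were called (15.7% of all genes were called lower), and Hist2h2aa1, Hist1h2ak and Hist1h2ai were not. The 5 include Hist3h2a, whose call in that fit supports nothing either. With only the 2 groups compared, 3 members were called lower, where 4.76% of all genes were.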

How the results depend on the processing

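Without the minimum level, members called numbered 1 at 6 h, 36 at 24 h, 6 at 72 h (3 higher and 3 lower) and 32 for 72 h against 24 h, where 11.7%, 47.4%, 41.1% and 23.6% of all genes were. Requiring a level above 0 in 3 libraries gave 1 at 6 h, 21 at 24 h, 4 at 72 h and 17 for 72 h against 24 h (15.6%, 63.3%, 52.2% and 31.6% of all genes), a filter that members could pass through their 24 h libraries alone, so these counts support nothing. With the trend on span removed the counts were 4, 7, 4 and 5 (17.2%, 62.0%, 54.1% and 30.2% of all genes), and the change of Hist1h2af at 24 h turned to −0.017. The 7 and the 5 include Hist3h2a, which met the minimum level only through its 24 h libraries. A change of 1 or more was passed by 7 at 24 h, 0 at 72 h and 3 for 72 h against 24 h (25.1%, 17.9% and 7.39% of all genes). With the minimum on libraries other than 24 h, added after seeing the data, the counts were 0, 13, 2 and 7 of 16 (14.2%, 62.7%, 50.4% and 29.9% of all genes). Fits of only the 2 groups compared gave 4 at 6 h (28.5% of all genes) and 3 for 72 h against 24 h (10.7%). Limma voom on recovered reads, added after seeing the data, gave 31 at 24 h (53.8% of all genes), 3 at 72 h (47.2%; 1 higher and 2 lower) and 31 for 72 h against 24 h (28.8%). The cause of these differences was not tested, beyond the number of members each fit took in (17 with the minimum level, 68 without the minimum, 66 in voom).

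By their correlations, replicate numbers paired serum with 6 h and with 24 h but not with 72 h, a hint from the data and not from the design. Of pairs with other numbers, 10 of 36 passed 0.1 as well, and 8 of 12 RNA libraries correlated best with their own number. With the replicate block, 4 members were called at 6 h, 14 at 24 h, 4 at 72 h and 11 for 72 h against 24 h, where 19.6%, 70.8%, 59.7% and 46.5% of all genes were. H3K9me2 libraries of the same number had r from −0.00 to 0.107, and the block changed 0 calls.

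Leaving out 1 library, the counts ran from 0 to 3 at 6 h, 9 to 15 at 24 h, 0 to 4 at 72 h, 5 to 13 for 72 h against 24 h, and 0 to 1 for H3K9me2 in LT2i. Shares of all genes were not counted for these fits, so the ranges cannot be set against them. For H3K9me2 in LT2i, 6 members were called without a minimum (55.9% of all genes), and 1 of 23 tested bins in a fit of single bins (15.9% of 916857 bins). Medians over members in place of sums gave class changes of 0.76 (H1), 0.34 (H2A) and −0.66 (H4) at 6 h, −0.58 (H1) at 72 h and −1.87 (H1) for 72 h against 24 h. H3K9me2 over all bins between the first and last member gave −1.82, −1.57 and −2.18 (serum, 24 h, LT2i) for the block of 23 genes, −0.33, −0.41 and −0.35 for the block of 31, and −2.04, −1.65 and −2.76 for Hist2. Without the bins of Hist1h2be and the testis pair, chosen after seeing the data, the block of 31 had −3.29, −2.80 and −3.07. Class sums kept their values within the spread of libraries in 120 of 120 fits without 1 library. Dropping 1 of 3 libraries cannot move a mean by more than that spread, so this count supports nothing. Depth limits H3, H4 and most H2B genes, whose median member had 94 reads or fewer in 12 libraries together.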
